A study of Homo sapiens with 5 samples.

Results

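Glutathione is the main small thiol of the cell, and 9 genes that make, regenerate or use it were examined for binding of Nrf2 and HIF1α. They are GCLC, GCLM and GSS for synthesis, SLC7A11 for cystine import, GSR for regeneration, GPX2 and GPX4 for peroxide reduction, and MGST1 and GSTP1 for conjugation. The genes were chosen by function among 20163 protein-coding genes, and each peak that overlapped a gene or the 50 kb on either side of it on hg19 was counted for the gene. By this rule they hold 65 of the 29781 peaks in the 4 libraries. The peaks come from chromatin immunoprecipitation with sequencing (ChIP-seq) in BEAS-2B, an immortalized epithelial cell line from human bronchus. The cells were starved of serum overnight, and were then left without inorganic arsenic (iAs; control) or given 1 μM iAs for 6 h. Chromatin was precipitated with an antibody against Nrf2 or HIF1α, so that the 4 groups are Nrf2 control, Nrf2 with iAs, HIF1α control and HIF1α with iAs, and a library of input DNA has no peak list. In that order the genes held 14 of 3204, 21 of 7743, 6 of 6008 and 24 of 12826 peaks. Their median widths were 339, 544, 327 and 310 bp, and the libraries' own were 309, 333, 276 and 340 bp. The depth behind a peak is unknown, since the lists give positions alone. Each group is 1 library of 1 cell line, so nothing below has a replicate check, and differences between groups were not tested.

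Glutathione is built in a pair of steps. Glutamate-cysteine ligase joins glutamate to cysteine, with GCLC as its catalytic and GCLM as its modifier subunit, and glutathione synthetase (GSS) adds glycine. Cysteine is often the limiting substrate, and the exchanger SLC7A11 brings it in as cystine. Nrf2 is a transcription factor activated by oxidants and electrophiles that binds antioxidant response elements as a dimer with small Maf proteins, and several of these genes are textbook targets. HIF1α is the oxygen-regulated subunit of the hypoxia-inducible factor and binds hypoxia response elements.

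The core of the antioxidant response element was searched as TGACNNNGC, the related AP-1 core as TGACTCA, and the hypoxia cores as ACGTG or GCGTG, each on both strands. TGACTCAGC contains both of the first pair. The Nrf2 peaks of the 9 genes held TGACNNNGC at 14 distinct positions, of which 6 read TGACTCAGC. Of these 14, 11 are shown so that the core can be compared between genes, and the other 3 lie at GSR. Each is given 5′ to 3′ on the stated strand of hg19, with the core in capitals, 10 bases on each side, and the distance of the core from the transcription start site (TSS) of the canonical transcript, negative upstream.
GCLC at -3107 bp, chr6:53412992-53413020, plus strand: ccccgccacgTGACTGCGCgggcccgcct
GCLC at -3152 bp, chr6:53413037-53413065, plus strand: cgcctccccgTGACTCAGCgctttgtgcg
GCLC at -70957 bp, chr6:53480842-53480870, minus strand: caaatcactgTGACTCAGCacctgtactt
GCLM at -30 bp, chr1:94375002-94375030, plus strand: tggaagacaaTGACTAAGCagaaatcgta
GCLM at 30834 bp, chr1:94344138-94344166, minus strand: tgtctcattcTGACTCAGCgatgcaggga
SLC7A11 at 6649 bp, chr4:139156840-139156868, plus strand: ctattcagagTGACTTAGCactattcagt
GPX4 at -4346 bp, chr19:1099633-1099661, plus strand: agtcaccataTGACTCAGCaattccactc
GPX4 at 22337 bp, chr19:1126316-1126344, minus strand: ccgggaatggTGACTCAGCcttccaggaa
MGST1 at -496 bp, chr12:16500069-16500097, plus strand: ggggacatcgTGACAAAGCaaattgtctg
MGST1 at 1546 bp, chr12:16502111-16502139, minus strand: cccagggccaTGACTCTGCaattttgtac
GSTP1 at -62 bp, chr11:67351207-67351235, plus strand: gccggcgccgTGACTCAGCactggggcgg
The positions at GCLC -70957 bp, GCLM 30834 bp and MGST1 -496 bp lay in Nrf2 peaks called with iAs only, and the other 8 lay in peaks of both conditions. For HIF1α, the ACGTG in a peak called with iAs only and within 1 kb of the TSS is shown at 2 genes of glutathione synthesis.
GSS at 116 bp, chr20:33543481-33543505, plus strand: tcccgaggaaACGTGacccatgccg
GCLC at 518 bp, chr6:53409369-53409393, plus strand: gtgccgccgcACGTGgtcggcatgg
A core is a match of letters and was not shown here to be bound.

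Nrf2 peaks lay at 7 of the 9 genes in control cells and at the same 7 with iAs, namely all but GSS and GPX2. Of all protein-coding genes, 20.0% had an Nrf2 peak within this reach in control cells and 35.0% with iAs. Within 10 kb the 7 genes remained in both conditions, where the shares of all genes were 10.6% and 19.6%. Within 1 kb of the TSS, Nrf2 had a peak at 5 genes in control cells (2.32% of all genes) and at 6 with iAs (5.17%), GCLC being the added one. The 5 genes with one in both conditions compare with 2.13% of all genes. The share of the glutathione genes was thus above that of all genes at each distance.

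HIF1α peaks lay at 4 of the 9 genes in control cells and at 7 with iAs. Of all genes, 45.5% and 68.6% had such a peak within 50 kb, so that these counts differ little from the background. Within 10 kb only GCLC and GPX4 had a HIF1α peak in control cells, where 29.0% of all genes had one, and 6 genes had one with iAs, where 54.7% did. Within 1 kb of the TSS, HIF1α had a peak at GCLC alone in control cells (16.7% of all genes) and at GCLC, GCLM, GSS, GSR, GPX4 and GSTP1 with iAs (42.6%). At 4 genes, GCLC, GCLM, GSR and GSTP1, both factors had a peak within 1 kb of the TSS with iAs, which held for 4.27% of all genes. Of the 1043 genes with an Nrf2 peak there with iAs, 860 had both, beside 4 of 6 among the 9 genes. None of the 9 genes had both in control cells, where 1.43% of all genes did. Of the 468 genes with an Nrf2 peak there in control cells, 289 had both, beside 0 of 5 among the 9 genes.

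**Figure D1:**
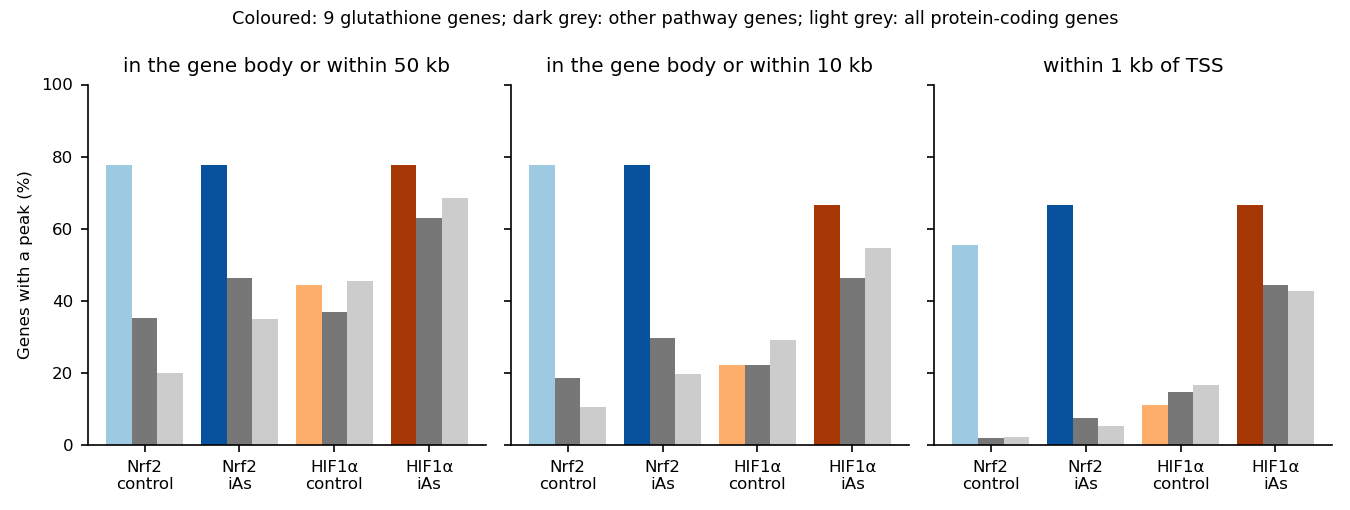
Share of genes with a peak (percent, from 0 to 100) for the 9 glutathione genes (coloured), 54 other genes of the pathway (dark grey) and all protein-coding genes (light grey), in each of the 4 libraries and at 3 distances. The coloured Nrf2 bars stand at 77.8% for 50 kb and 10 kb in both conditions, above both grey bars, while the HIF1α bar for control cells lies below the bar of all genes at each distance.

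GCLC, the catalytic subunit of glutamate-cysteine ligase, had 1 Nrf2 peak in control cells and 3 with iAs. The control peak was 583 bp wide and centred -3.16 kb from the TSS, and the peak at this place with iAs was 1209 bp wide (chr6:53412527-53413735). Both hold the cores at -3107 and -3152 bp shown above, and the first of these shares bases with an ACGTG. With iAs a narrow Nrf2 peak of 196 bp was also called over the TSS. The third, of 695 bp, lay -70.8 kb from the canonical TSS but inside the annotated gene, 1055 bp from its far 5′ end. HIF1α had a peak at the TSS in both conditions, 235 bp wide without and 478 bp wide with iAs, and a further one of 231 bp in exon 1 with iAs only. In the region at -3 kb the HIF1α peak spanned 311 bp without and 251 bp with iAs, so that it was narrower where the Nrf2 peak was wider. A HIF1α peak of 712 bp with iAs lay in exon 3 of the neighbour KLHL31.

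GCLM, the modifier subunit, showed a single wide Nrf2 peak with iAs where control cells had a pair of narrow ones. The control peaks were 227 and 232 bp wide and centred at 0.467 and -0.034 kb. The peak with iAs was 1451 bp wide, spanned both (chr1:94373966-94375416), and ranked 157 by width among the Nrf2 peaks with iAs, or in the top 2.03%. The TGACTAAGC at -30 bp lies in the control peak over the TSS and in this wide peak. HIF1α had no peak there in control cells and a pair of 247 and 223 bp with iAs, both inside the span of the wide Nrf2 peak. Another Nrf2 peak of 853 bp was called with iAs only, 30.6 kb from the GCLM TSS and 0.34 kb from that of DNTTIP2, together with a HIF1α peak of 200 bp. HIF1α peaks of 634 and 612 bp lay further out, overlapping the body of BCAR3, and only the second had a peak in control cells (355 bp).

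GSS, which completes the tripeptide, had no Nrf2 peak within 50 kb in either condition. The nearest Nrf2 peak was 178 kb from its TSS in control cells and 137 kb with iAs. HIF1α had no peak within 50 kb in control cells and 1 of 642 bp over the TSS with iAs (chr20:33543136-33543777), which holds the ACGTG at 116 bp. This peak also covers the canonical TSS of MYH7B, and to which of the 2 genes it belongs was not tested. A second HIF1α peak of 206 bp lay in intron 34 of MYH7B.

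SLC7A11, which exchanges glutamate for cystine, had the most bases under Nrf2 peaks with iAs of the 9 genes and no HIF1α peak. In control cells Nrf2 peaks of 796 bp in intron 2, 332 bp over the TSS and 257 bp at -10.4 kb were called. With iAs the peak in intron 2 was 1072 bp wide, that over the TSS was 1190 bp (chr4:139162744-139163933), and that upstream was 247 bp. Another, of 199 bp, was called at -9.77 kb with iAs only. The peak in intron 2 holds the TGACTTAGC at 6649 bp, while the 1190 bp over the TSS held neither TGACNNNGC nor TGACTCA. The nearest HIF1α peak lay 772 kb from the TSS in control cells and 773 kb with iAs.

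GSR, the reductase that returns oxidized glutathione to its reduced form, lies on chromosome 8 and is described without sequence. It had 2 Nrf2 peaks in control cells and 5 with iAs. The peak over the TSS spanned 355 bp without iAs and 594 bp with it, and that in intron 1 at 4.8 kb was 306 and 466 bp. The 3 peaks called with iAs only were 224, 324 and 758 bp wide, all centred in intron 1, and the widest reached into exon 1. HIF1α peaks of 349 bp over the TSS and 311 bp in exon 1 were called with iAs only. The only HIF1α peak within reach in control cells lay at the start of GTF2E2, 69.6 kb from the GSR TSS, where it was 430 bp wide and 594 bp with iAs.

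GPX2, a glutathione peroxidase of epithelia, had no peak of either factor within 10 kb. A HIF1α peak of 308 bp with iAs, at -44.3 kb, lay in exon 1 of FNTB. The nearest Nrf2 peak was 331 kb away in both conditions.

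GPX4, the peroxidase that reduces lipid hydroperoxides, had 3 Nrf2 peaks in each condition at the same 3 places, none within 1 kb of its TSS. At -8.5 kb, at the start of POLR2E, the Nrf2 peak spanned 359 bp without iAs and 522 bp with it. At -4.3 kb, between POLR2E and GPX4, it was 497 and 544 bp, and inside SBNO2 at 22.3 kb it was 304 and 318 bp. The last pair of places each hold a TGACTCAGC, and their widths differed little between conditions. HIF1α had 2 peaks in control cells, 272 bp wide at the start of POLR2E and 343 bp in SBNO2, and at these places 378 and 853 bp with iAs. With iAs 4 more HIF1α peaks were called. That nearest to the GPX4 TSS was 306 bp wide, in intron 1 at 0.189 kb, and the others were 207 to 309 bp wide in ARHGAP45 and SBNO2.

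MGST1, a membrane-bound transferase and peroxidase, had Nrf2 peaks alone. Control cells had peaks of 220 and 772 bp in intron 1. With iAs a single peak of 1739 bp spanned both (chr12:16500811-16502549), and it ranked 74 by width among the Nrf2 peaks with iAs, in the top 0.956%. Peaks of 327 bp over the TSS and 296 bp at -0.479 kb were called with iAs only, and the second holds the TGACAAAGC shown above. The nearest HIF1α peak with iAs lay 436 kb from the TSS.

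GSTP1, the cytosolic pi-class transferase that conjugates glutathione to electrophiles, had 1 Nrf2 peak, over its TSS, in both conditions. It spanned 346 bp without iAs and 566 bp with it, and its TGACTCAGC at -62 bp lay 16 bp from the centre of the peak with iAs. A HIF1α peak of 407 bp was called over the same place with iAs, where none was called in control cells. HIF1α peaks with iAs of 431 bp and 275 bp lay at the starts of the neighbours NDUFV1 and NUDT8.

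**Figure D2:**
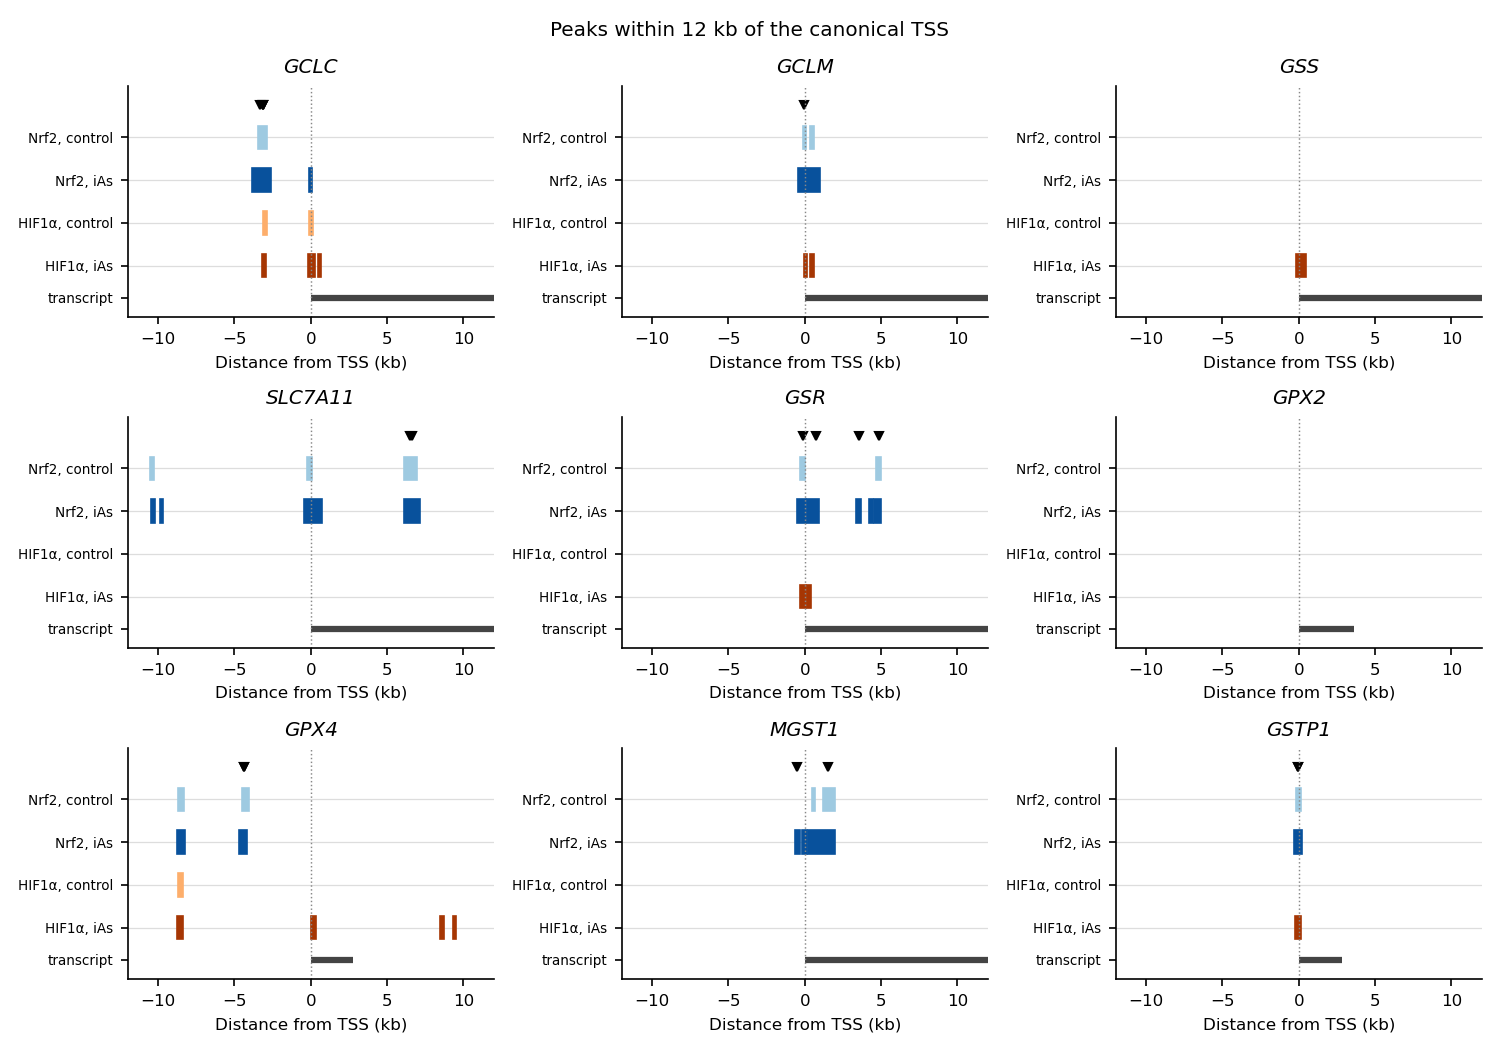
Peaks within 12 kb of the canonical TSS of each gene (horizontal axis, distance in kb, negative upstream), drawn to scale in 1 row per library. The canonical transcript is a dark bar, and triangles mark TGACTCA or TGACNNNGC in Nrf2 peaks. GSS shows no Nrf2 peak, SLC7A11 and MGST1 show no HIF1α peak, and GPX2 shows no peak of either factor. The widest block is the 1739 bp Nrf2 peak of MGST1 with iAs.

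The bases covered by Nrf2 peaks were counted in the gene body and 50 kb on each side. They were more with iAs than in control cells at each of the 7 genes with such peaks. For SLC7A11 they went from 1385 bp to 2708 bp, for GSR from 661 to 2366 bp and for MGST1 from 992 to 2362 bp. GCLM had 459 and 2304 bp, and GCLC 583 and 2100 bp. GPX4 and GSTP1 differed least, with 1160 and 1384 bp, and 346 and 566 bp. Summed over the genes, Nrf2 peaks covered 5586 bp without iAs and 13790 bp with it, while those of the whole library covered 1.2 and 3.47 Mb. Of all genes, 1.38% had at least as many bases under Nrf2 peaks with iAs as SLC7A11, 2.11% as many as MGST1 or GSR, 2.23% as many as GCLM, 2.7% as many as GCLC, 5.82% as many as GPX4 and 17.5% as many as GSTP1. In control cells these shares were lower for SLC7A11 (0.813%), MGST1 (2.06%), GPX4 (1.37%) and GSTP1 (11.9%), and higher for GSR (5.04%), GCLC (6.39%) and GCLM (9.18%). Longer genes have more room for peaks, and several of the genes with many covered bases are long, with 262 kb for MGST1, 120 kb for GCLC, 78.3 kb for SLC7A11 and 49.8 kb for GSR, against a median of 27.2 kb over all genes. The part of gene length in these ranks was not tested.

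For HIF1α the order of the genes was another one. GPX4 had the most covered bases with iAs, 2283 bp against 615 bp in control cells, followed by GCLM with 1916 and 355 bp and GCLC with 1672 and 546 bp. GSR had 1254 and 430 bp. GSTP1, GSS and GPX2 had 1113, 848 and 308 bp with iAs and no HIF1α peak in control cells. Of all genes, 8.25% had at least as many bases under HIF1α peaks with iAs as GPX4, and 60.4% at least as many as GPX2. Many of these bases belong to neighbours of the 9 genes: with only peaks whose nearest TSS is the gene's own, GCLM kept 470 bp, GSTP1 407 bp and GPX2 none.

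**Figure D3:**
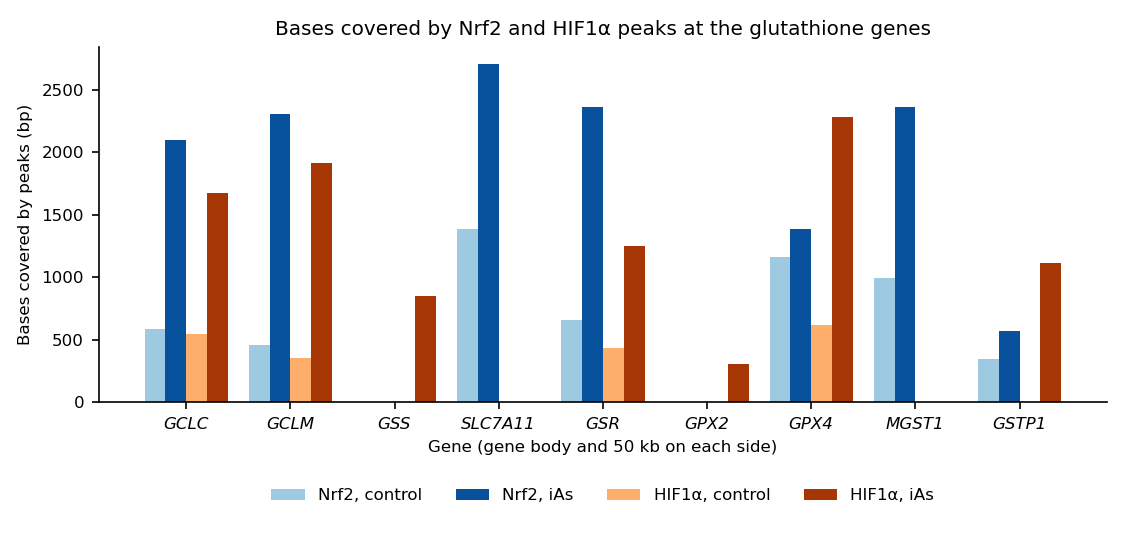
Bases covered by peaks (vertical axis, bp, from 0) in the gene body and 50 kb on each side, for each gene and each of the 4 libraries (1 library per bar, no error). The Nrf2 bar with iAs is higher than its control bar at all 7 genes that have one, from 566 bp at GSTP1 to 2708 bp at SLC7A11, and SLC7A11 and MGST1 have no HIF1α bar.

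All 14 Nrf2 control peaks of these genes overlapped an Nrf2 peak with iAs, by at least 1 bp, where 5.37% of the control peaks of the whole library did not. All 6 HIF1α control peaks overlapped one with iAs, where 46.3% of that library did not. Of the 21 Nrf2 peaks called with iAs, 9 (42.9%) had no control peak under them, against 62.0% of the library. They lay at GCLC, GCLM, SLC7A11, GSR and MGST1. Of these 9, only 3 remained when a gap of up to 1 kb was counted as shared, and 3 peaks were left without a counterpart when equal numbers of the widest peaks were compared. Of the 24 HIF1α peaks called with iAs, 18 (75.0%) had none, close to the 75.2% of the library, and 5 were left with equal numbers of the widest peaks. A peak called with iAs only occurred at 5 of the 9 genes for Nrf2 (25.4% of all genes) and at 7 for HIF1α (59.6% of all genes).

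Where both conditions had a peak, the Nrf2 peak with iAs was wider than the control peaks it overlapped, summed, at 11 of 12 places, with a median ratio of 1.58. This was the behaviour of the whole library, in which 91.7% of 2939 places were wider with iAs and the median ratio was 1.63. The TSS of SLC7A11 had a ratio of 3.58, above 96.6% of all places, and GCLM had 3.16, above 94.3%. The exception was the peak at -10.3 kb of SLC7A11, with 0.961. For HIF1α, 5 of 6 places were wider with iAs, with a median ratio of 1.56 against 1.43 over 3175 places, of which 75.9% were wider. The ratio of 0.807 at GCLC -3.08 kb was the exception. Of the 21 Nrf2 peaks with iAs, 5 were 1000 bp wide or wider, at GCLC, GCLM, MGST1 and a pair at SLC7A11, where 6.61% of the library was. No Nrf2 control peak of these genes was that wide (1.94% of the library), nor any HIF1α peak with iAs (3.4%). This mark of 1000 bp was set after the widths were seen.

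**Figure D4:**
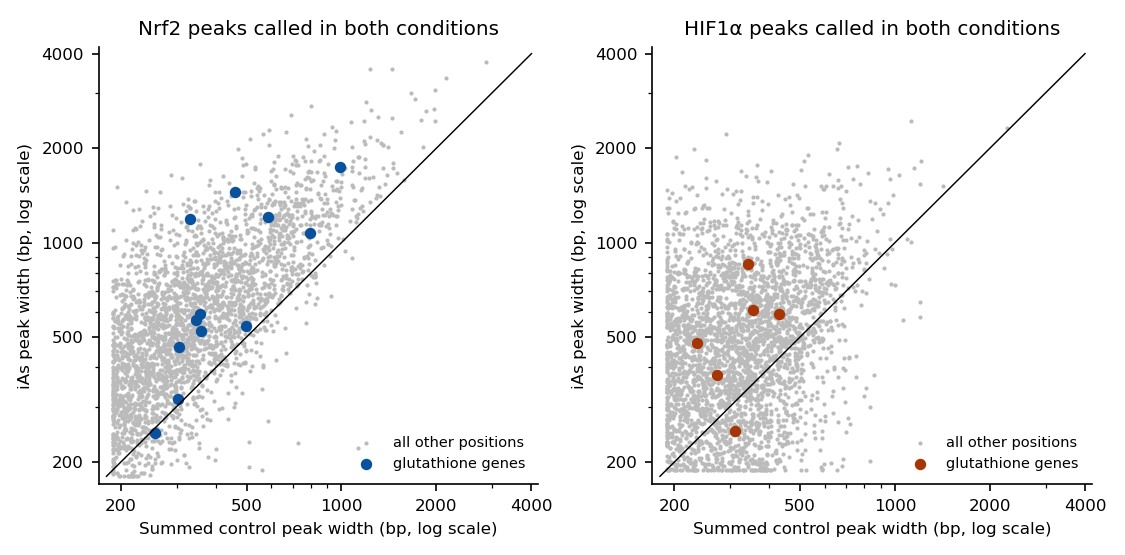
Width of each peak with iAs (vertical axis, bp, log scale) against the summed width of the control peaks it overlaps (horizontal axis, bp, log scale), for Nrf2 and HIF1α, with the glutathione genes as large points, all other positions as grey points and equal width as the line. For the glutathione genes 11 of 12 Nrf2 points and 5 of 6 HIF1α points lie above the line, within the cloud of all positions.

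With the peaks of the 4 libraries merged, the 9 genes held 36 of 21088 sites. None of the 36 had a peak in control cells only, against 8.26% of all sites, and 20 (55.6%) had peaks with iAs only, against 61.6%. Both factors had a peak with iAs at 8 of the 36 sites (22.2%), which held for 5.29% of all sites. These 8 lay at the TSS of GCLC, GCLM, GSR and GSTP1, over exon 1 and intron 1 of GSR, at GCLC -3.23 kb, and at the starts of the neighbours DNTTIP2 and POLR2E. Peaks of all 4 libraries met only at GCLC -3.23 kb and at POLR2E. In terms of peaks, 8 of 21 Nrf2 peaks with iAs (38.1%) overlapped a HIF1α peak with iAs, against 14.7% of the library. Of these 21, 9 reached within 1 kb of the TSS of their gene, where 42.6% of all genes had a HIF1α peak with iAs. The part of this position in the overlap was not tested. Of the 24 HIF1α peaks with iAs, 9 (37.5%) overlapped an Nrf2 peak with iAs, against 8.95%. In control cells, 2 of 14 Nrf2 peaks (14.3%, against 27.7% of the library) and 2 of 6 HIF1α peaks (33.3%, against 14.8%) met a peak of the other factor. With a reciprocal overlap of 50% the count of 8 came to 3, and with equal numbers of the widest peaks to 5.

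Of the 21 sites with an Nrf2 peak, 17 were nearer to the TSS of the glutathione gene than to any other protein-coding TSS. For the 23 sites with a HIF1α peak this was 12, and the other 11 were nearer to a neighbour. The HIF1α peaks near a neighbour lay at DNTTIP2, NDUFV1, NUDT8, FNTB, ARHGAP45, POLR2E, MYH7B, KLHL31 and GTF2E2, and for most of these within 1 kb of the neighbour's own TSS. In the whole library, too, HIF1α with iAs had a peak within 1 kb of the TSS at more genes than Nrf2 (42.6% against 5.17%), and the difference between the factors was not tested.

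**Figure D5:**
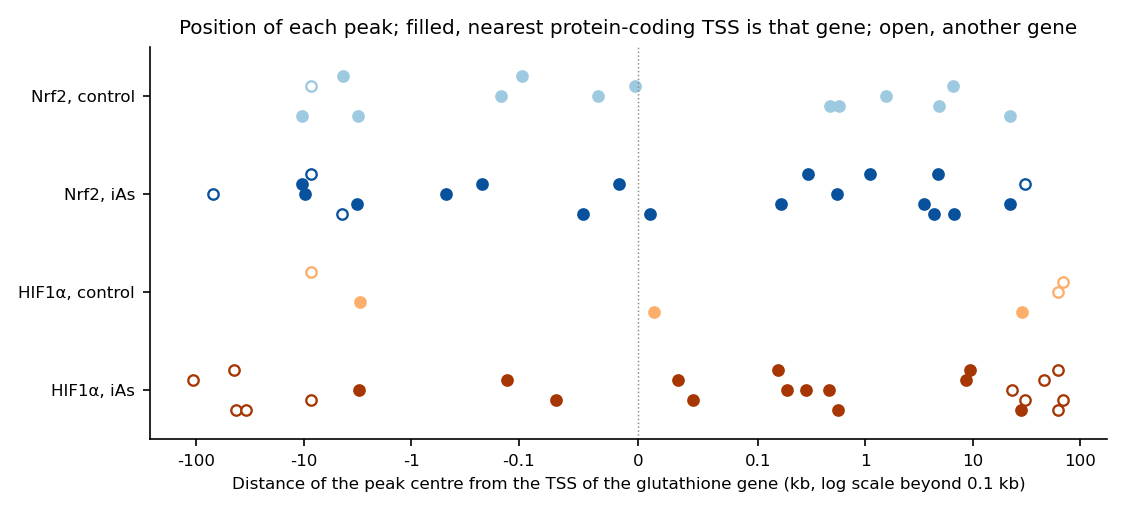
Distance of each peak centre from the TSS of its glutathione gene (horizontal axis, kb, log scale beyond 0.1 kb, negative upstream) in the 4 libraries, 1 point per peak; filled points are nearest to that TSS and open points are nearer to another protein-coding TSS. Of the Nrf2 points 13 of 14 in control cells and 17 of 21 with iAs are filled, and of the HIF1α points 3 of 6 and 13 of 24.

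The antioxidant cores, TGACTCA or TGACNNNGC, were counted within 100 bp on each side of the peak centre. They occurred in 9 of the 14 Nrf2 control peaks, against 62.4% of the library and 9.71% of windows moved by 5 kb. With iAs they occurred in 9 of 21, against 51.2% and 9.98%. Over the whole interval the count with iAs was 14 of 21 (66.7%), against 66.4% of the library. Some cores of the widest peaks lay away from the centre. At GCLM the core lay 325 bp from the centre of the 1451 bp peak, and at MGST1 445 bp from that of the 1739 bp peak. TGACTCA alone was in 5 control peaks (47.8% of the library) and 6 with iAs (38.3%), and TGACNNNGC in 8 (42.4%) and 6 (31.6%). TGACTCAGC lay near the centre of 4 control peaks (23.8% of the library and 0.187% of moved windows) and of 3 with iAs (15.6% and 0.245%). The Nrf2 peaks of the glutathione genes thus held these cores about as often as the library as a whole. Hypoxia cores were in 5 Nrf2 control peaks (24.9% of the library) and in 6 with iAs (26.0%).

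In the HIF1α peaks with iAs a hypoxia core lay near the centre of 16 of 24, against 52.4% of the library and 25.3% of moved windows. In control cells it was 4 of 6, against 47.7% and 23.8%. An antioxidant core lay near the centre of 6 of the 24 HIF1α peaks with iAs, where 11.9% of the library and 9.51% of moved windows had one, and near that of 1 of the 6 control peaks, where 24.1% of the library had one. TGACTCAGC was in 2 of these, at GCLC -3.08 kb and at the GSTP1 TSS, where 0.429% of the library had it. The HIF1α peak over the GSTP1 TSS held no hypoxia core in its interval.

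The other genes of the pathway were a list of 54 chosen by function, and all were found in the annotation. Within 50 kb, 19 of them had an Nrf2 peak in control cells and 25 with iAs, and 20 and 34 had a HIF1α peak. As shares these were 35.2%, 46.3%, 37.0% and 63.0%, against 20.0%, 35.0%, 45.5% and 68.6% of all genes, so that both HIF1α shares lay below that of all genes. Within 10 kb the counts were 10, 16, 12 and 25, or 18.5%, 29.6%, 22.2% and 46.3%, against 10.6%, 19.6%, 29.0% and 54.7%. Within 1 kb of the TSS, 1 of the 54 had an Nrf2 peak in control cells (1.85%) and 4 with iAs (7.41%). Of all genes, 2.32% and 5.17% had one, and of the 9 genes above, 5 and 6. By role, Nrf2 peaks with iAs in the gene body or within 10 kb lay at 5 of 5 exporters of conjugates, the ABCC genes. Of these 5, 4 had one in control cells, and 19.6% of all genes had one with iAs. The widest lay 72.5 kb from the TSS at ABCC1, 26.4 kb at ABCC3, 11.5 kb at ABCC5 and 2.1 kb at ABCC2. The remaining exporter had a single one, 33.6 kb from its TSS and 181 bp wide, the smallest width in that library. The part of gene length in these counts was not tested. Nrf2 peaks with iAs were found at 6 of 19 transferases, of which GSTM1, GSTM2 and GSTM5 share a peak. The counts for the other roles were 2 of 7 glutaredoxins and glyoxalases, 1 of 4 genes of cystine and glutamate supply, 1 of 6 peroxidases and 1 of 13 genes of glutathione degradation. HIF1α peaks with iAs were found at 9 of these 13 degradation genes, 4 of 5 exporters and 5 of 7 glutaredoxins and glyoxalases. They were found at 3 of 4 genes of cystine and glutamate supply, 1 of 6 peroxidases and 3 of 19 transferases. Of all genes, 54.7% had one. In control cells the counts in the same order were 1, 3, 3, 0, 1 and 4, where 29.0% of all genes had one.

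Among the 10 other genes with the widest peaks with iAs, 4 were exporters, which pump glutathione conjugates out of the cell. At ABCC3 a 2491 bp Nrf2 peak lay 26.4 kb from the TSS with iAs, and the widest control peak under it spanned 1023 bp. It overlapped more than this 1 control peak, so their summed width was larger than 1023 bp. Within 10 kb, ABCC3 had 5 Nrf2 peaks in control cells and 3 with iAs. ABCC2 had one of 1446 bp with iAs, ABCC5 one of 1024 bp (365 bp in control cells), and ABCC1 had 10 Nrf2 peaks with iAs against 3, the widest of 848 and 399 bp. Among the mu-class transferases, a single Nrf2 peak of 1775 bp with iAs lay within 10 kb of GSTM1, GSTM2 and GSTM5, nearest to the TSS of GSTM5, and its control counterpart was 498 bp wide. MGST3 and GLRX3 had HIF1α peaks with iAs of 829 and 827 bp over the TSS. Control cells had a HIF1α peak of 304 bp at MGST3 and none within 10 kb of GLRX3. The wider of the 2 Nrf2 peaks with iAs within 10 kb of GLRX spanned 806 bp, against 522 bp in control cells, and lay nearest to RHOBTB3.

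SLC7A11 led the 9 genes in bases under Nrf2 peaks with iAs, and the genes most like it over the 4 libraries were UGT1A10, UGT1A3 and UGT1A4. Likeness was the Euclidean distance between log2 of covered bases plus 1 in the 4 libraries, over genes at least 1 Mb from the 9, and it was 0.237 for each of the 3. These genes overlap in a single locus and share the same peaks, with 1175 bp under Nrf2 peaks in control cells, 2685 bp with iAs, and none under HIF1α peaks.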

How the data were processed

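The deposited values are the start and end positions of peaks in base pairs on hg19, with no height, score or p-value, so the read depth of a peak is unknown and only presence, position and width were compared. The authors' methods name MACS or SICER as peak caller and a down-sampling of tags within a group, and the submitters' processing notes name BWA, MACS2 2.1.0 and hg19. Which caller made each list is not given in the sources used here. The sample labels name a Santa Cruz (Nrf2) and an Abcam (HIF1α) antibody, whereas the methods name Active Motif. Samples were grouped by their labels, with 1 library per group.

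Peaks were read in Python 3.11.15, with positions counted from 1. Genes and canonical TSSs came from GENCODE release 44 on GRCh37, and sequence from hg19 through samtools 1.23.1. A peak was counted for a gene when it overlapped the gene body or the 50 kb around it. Peaks were called shared from 1 bp of overlap, and cores were searched in 100 bp on each side of the centre. Peaks are not replicates, so no test was run. The steps for overlap, merging and motifs recovered planted values when tested with simulated peaks. The 9 genes, the 54 other pathway genes and the tests were chosen with earlier results of these data known.

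The genes named are the 9, the 10 other pathway genes with the widest peak with iAs within 10 kb, the nearest genes of peaks nearer to another gene, and the 3 genes most like the one with the most bases under Nrf2 peaks with iAs. Alternatives were other distances (10 and 100 kb, or 50 kb of the TSS), nearest TSS only, the wider 50% of peaks, merging below 500 bp, other definitions of overlap, and other motif windows. The input library was not used here, since it has no peak list.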

Additional observations from a re-analysis of the deposited data

Results flagged for a closer look

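At the GCLC site -3.23 kb from the TSS, where all 4 libraries had a peak, the factors differed in direction. The bases covered by the Nrf2 peak with iAs minus those in control cells came to 626 bp, and for HIF1α the same difference came to -60 bp. With 1 library per condition, this difference was not tested.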

How the results depend on the processing

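The 23 counts were recomputed under the alternatives, which gave 103 values, of which 70 were within 1.5 times the count reported and 33 were not; the cause was not tested beyond what each alternative leaves out by construction. No paired analysis was possible because each group is 1 library and the labels give no shared replicate numbers, and no library could be left out for the same reason. Within 10 kb, the other pathway genes with a peak were 10 for Nrf2 control, 16 for Nrf2 with iAs and 12 for HIF1α control, and by nearest TSS 9, 16 and 13. HIF1α peaks at the 9 genes came to 3 in control cells and 14 with iAs within 10 kb, to 11 and 39 within 100 kb, and to 3 and 13 by nearest TSS. The 4 genes with a HIF1α peak in control cells came to 2 within 10 kb, within 50 kb of the TSS and by nearest TSS. The wider 50% of peaks left 8 Nrf2 control, 13 Nrf2 and 11 HIF1α peaks with iAs.

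Peaks with iAs only came to 3 for Nrf2 with a gap of 1 kb or with equal numbers of the widest peaks, and for HIF1α to 11 within 10 kb and 5 with equal numbers. Nrf2 peaks with iAs on a HIF1α peak came to 3 with a reciprocal overlap of 50% and 5 with equal numbers. Over the whole interval, Nrf2 peaks with iAs had an antioxidant core in 14 and a hypoxia core in 13, and HIF1α control peaks an antioxidant core in 2. With 250 bp on each side, hypoxia cores were in 8 Nrf2 control peaks and 14 with iAs, and antioxidant cores in 2 HIF1α control peaks. Within 10 kb, 0 HIF1α control peaks had an antioxidant core and 2 a hypoxia core, and 7 HIF1α peaks with iAs had a hypoxia core. Depth is unknown, and a peak absent from a list may lie below its caller's threshold.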
